A study of Homo sapiens with 3 samples.

Results

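The super elongation complex was described through 10 genes: MLLT3, MLLT1, AFF1, AFF3, AFF4, ELL, ELL2, ELL3, CDK9 and CCNT1. A probe set was taken when the platform annotation gave it exactly 1 gene symbol and that symbol was one of the 10. This gave 36 of the 41097 probe sets with 1 symbol, which name 19775 genes. The set was chosen by earlier results of these arrays, among them the log2 differences of MLLT3 from untreated at 6 h and 24 h, so the differences are a description and carry no test.

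The samples were MM1S cells, an established human multiple myeloma line. They were untreated, labelled as 0 h, or grown with 10 nM FK866 for 6 h or for 24 h, in the same medium with serum, antibiotics and glutamine. FK866 blocks NAMPT, the enzyme that recycles nicotinamide into NAD. Each group gave 1 Affymetrix array, so no difference below has a replicate check or a p-value. Both treated arrays were compared with the same untreated array, and FK866 and time in culture cannot be told apart. NAMPT itself read 5473, 1248 and 1422.5, so its treated signals lay 4.38-fold (6 h) and 3.85-fold (24 h) below untreated.

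RNA polymerase II pauses shortly after it starts most genes. The kinase P-TEFb, made of CDK9 and a cyclin T, releases it, and the super elongation complex carries P-TEFb to genes that need rapid or strong induction. In the complex an AFF protein is the scaffold, an ELL protein speeds the polymerase, and MLLT1 (ENL) or MLLT3 (AF9) reads acetylated histones through a YEATS domain. Several of these subunits are fused to KMT2A (MLL) in acute leukaemias. In plasma cells ELL2 is known for promoting the secreted form of the immunoglobulin heavy chain, and ELL2 is a risk locus for multiple myeloma.

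The sequences just upstream of MLLT3 and its paralog MLLT1 are shown because these genes have the same role in the complex and differed in these arrays. They are the 250 bases before the RefSeq transcription start, written 5′ to 3′ along the gene, on the minus strand of GRCh38.p14. The MLLT3 sequence is chr9:20622500-20622749 and the MLLT1 sequence is chr19:6279976-6280225. Capitals mark matches on either strand to GGGCGG (the GC box), CCAAT (the CCAAT box), CACGTG (an E-box), TATAAA (the TATA box) or TGACG (the core of the cAMP response element).
MLLT3: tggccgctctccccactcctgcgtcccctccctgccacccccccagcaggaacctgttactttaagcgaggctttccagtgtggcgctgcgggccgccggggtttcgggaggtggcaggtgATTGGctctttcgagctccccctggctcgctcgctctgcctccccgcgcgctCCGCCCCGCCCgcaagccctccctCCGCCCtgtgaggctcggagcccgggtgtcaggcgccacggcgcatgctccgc
MLLT1: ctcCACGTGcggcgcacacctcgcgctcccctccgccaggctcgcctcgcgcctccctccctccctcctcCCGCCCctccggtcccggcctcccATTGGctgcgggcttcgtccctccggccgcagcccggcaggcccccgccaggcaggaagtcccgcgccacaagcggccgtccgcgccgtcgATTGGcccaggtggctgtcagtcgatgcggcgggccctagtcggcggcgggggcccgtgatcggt
The MLLT3 sequence held GGGCGG 3 times, all on the reverse strand, the first 77 bases before the start, the next 72 bases before it and sharing a base with the first, and the last 53 bases before it. It held CCAAT once, reversed, 129 bases before the start. The MLLT1 sequence held the GC box once, the CCAAT box 2 times and the E-box once. Among 35116 RefSeq promoters read over the same length, 42.6% held the GC box, 32% the CCAAT box, 6.34% the E-box, 10.7% the TATA box and 21.2% the cAMP response core, so the shared matches are common ones. GC content was 72.0% for MLLT3 and 77.2% for MLLT1, against a median of 58.0%. A match is a description of the letters and shows no binding.

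Values are signals in arbitrary units, with signals under a floor of 16 set to 16 before log2 was taken. Probe sets whose mean log2 value fell below the overall median, a signal of 19.1, were dropped, and each gene is represented by the brightest of those kept. This kept 23 of the 36 probe sets and 9 of the 10 genes, and measured 11883 genes in all. Another 8 of the 36 lay under the floor on all 3 arrays. Against untreated, the median gene stood at a log2 difference of -0.10 at 6 h and -0.13 at 24 h, which is the level to read other differences against. At least 2-fold differences numbered 171 genes higher and 395 lower at 6 h, and 135 and 495 at 24 h. After quantile normalization the numbers were 279 and 208 at 6 h and 288 and 264 at 24 h, and after centring on array medians 319 and 181, and 299 and 254. All 8 plasma cell markers were above the floor on every array, with summed signals from 29474 to 31730.5. The 2 B cell markers on the array summed to 10, 19.1 and 30.2 in the untreated, 6 h and 24 h arrays, with MS4A1 above the floor at 24 h (19.1), and their part in the results was not tested. Summed signals were 63.4 to 83.5 for 6 T and NK cell markers, 58.7 to 87.1 for 5 myeloid markers and 123 to 155 for 6 stroma markers, with 0 markers at exactly 0. In the untreated, 6 h and 24 h arrays 3, 1 and 1 of the T and NK markers were above the floor. For the myeloid markers the counts were 2, 2 and 2, and for the stroma markers 3, 4 and 3. The highest of these was COL1A1, at 101.5, 55.9 and 69.2.

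Of the 9 measured subunit genes, 1 was at least 2-fold higher than untreated at 6 h, against 1.44% of all genes, and 0 were at least 2-fold lower, against 3.32%. At 24 h 1 was higher, against 1.14%, and 0 were lower, against 4.17%. The gene was MLLT3 both times, and 0.438% of all genes were at least 2-fold higher at both times. These shares are given for scale only, since the genes were chosen with the differences known. The 8 other genes lay between -0.41 and 0.52 on the log2 scale at 6 h and between -0.51 and 0.52 at 24 h. The median of the 9 was -0.13 at 6 h and -0.07 at 24 h, next to -0.10 and -0.13 for all genes.

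**Figure D1:**
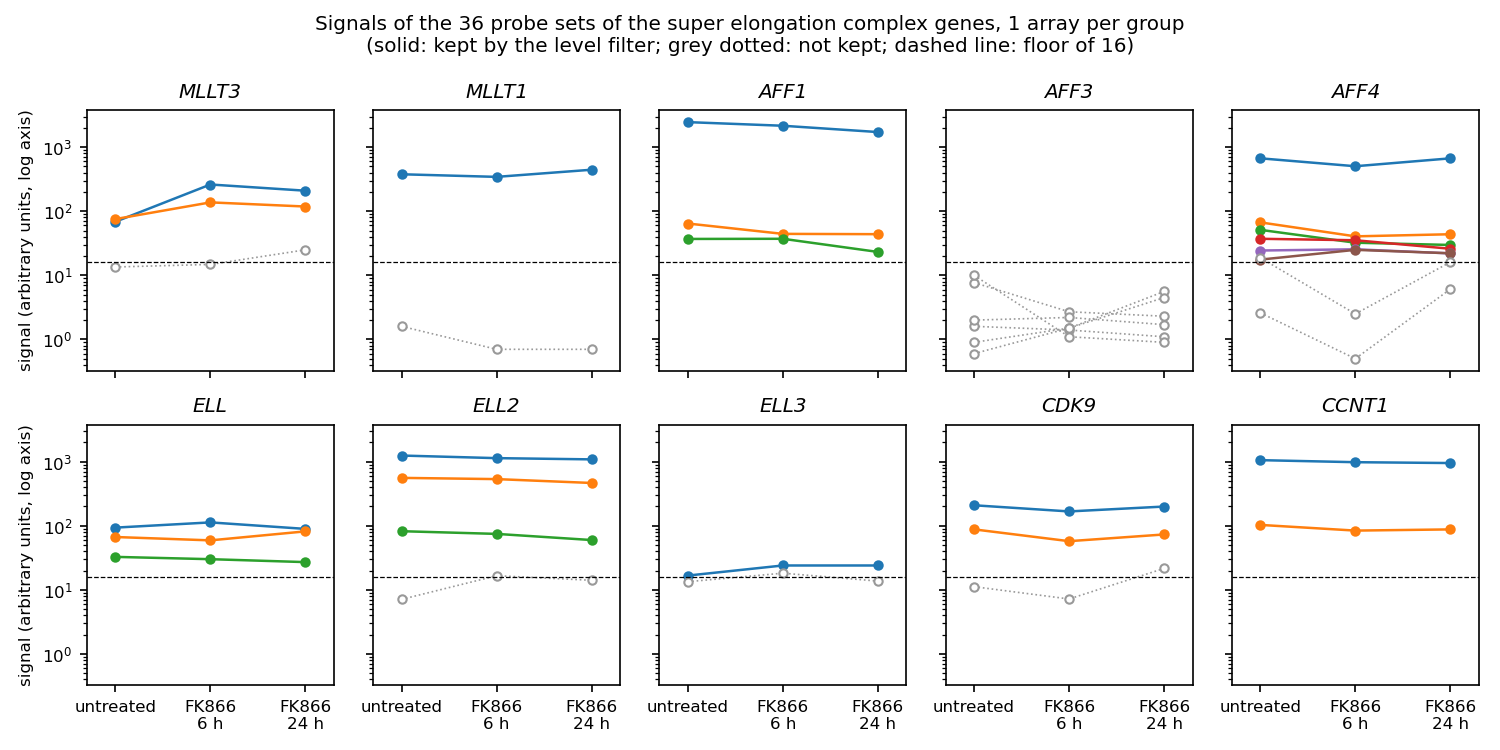
Signal of each of the 36 probe sets (log axis, arbitrary units) in the untreated, 6 h and 24 h arrays, 1 panel per gene; coloured solid lines are the 23 kept probe sets, grey dotted lines the others, and the dashed line is the floor of 16. The 2 kept MLLT3 probe sets were higher on both treated arrays, the 3 kept ELL2 probe sets were nearly level, and all 6 AFF3 probe sets stayed under the floor.

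MLLT3, a reader of acetylated histones that joins the complex to chromatin, gave a brightest probe set signal of 68.6 without FK866, 262 after 6 h and 209.5 after 24 h. Its other kept probe set read 75.6, 138 and 119. Both probe sets were therefore higher on each treated array than on the untreated one, and both were lower at 24 h than at 6 h. The brightest was 3.82-fold higher at 6 h and 3.05-fold higher at 24 h, log2 differences of 1.93 and 1.61. The other was 1.82-fold and 1.57-fold higher, log2 differences of 0.87 and 0.65. The probe sets thus shared a direction but not a size, standing 1.07 apart at 6 h and 0.96 at 24 h. For scale, the pooled SD between probe sets of the same gene, at a mean log2 signal from 6 to 8, was 0.40 at 6 h and 0.39 at 24 h. It covers probe error and isoforms, and not variation between cultures. Between the treated arrays the probe sets differed by -0.32 and -0.22.

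Among genes above the floor on both arrays, MLLT3 ranked 3 from the top of 11235 at 6 h and 7 from the top of 11139 at 24 h. At a mean log2 signal from 6 to 8, 1.19% of 3109 genes were at least 2-fold higher at 6 h and 0.965% at 24 h. By the mean of its 2 probe sets the log2 difference was 1.40 at 6 h and 1.13 at 24 h. Both kept probe sets end in _s_at, the platform's mark for probes shared by several transcripts, so MLLT3 has no value without such probe sets. Its remaining probe set, of unique type, read 13.5, 14.8 and 25.0 and was not kept, its mean log2 value of 4.21 lying below the filter.

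MLLT1, which takes the place of MLLT3 in many complexes, read 378 without FK866, 344 after 6 h and 445 after 24 h. Its log2 difference was -0.14 at 6 h and 0.24 at 24 h, where the pooled SD between probe sets was 0.26 and 0.27 at a mean log2 signal of 8 or more. The scaling matters here. At 24 h MLLT1 stood at 0.37 after quantile normalization and 0.49 after centring on array medians, where the median gene stood at 0.05 and 0.12. Without rescaling MLLT1 stood 0.36 above the median gene. These MLLT1 values are larger than that SD, which does not cover variation between cultures and so gives no test. At 6 h centring put MLLT1 at 0.10, where the median gene stood at 0.13. It rests on 1 probe set, its second being under the floor on all arrays. With 1 array per group the difference between MLLT3 and MLLT1 was not tested.

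Without rescaling, AFF1 and AFF4, the measured scaffold genes, were level or lower by their brightest probe sets. AFF1 (AF4) read 2464 without FK866, 2163 after 6 h and 1724 after 24 h by its brightest probe set. Its log2 difference was -0.19 at 6 h and -0.51 at 24 h, a 1.43-fold lower signal, and its other probe sets differed by -0.55 and -0.67 at 24 h. All 3 AFF1 probe sets were thus lower at 24 h, by sizes between 0.51 and 0.67, and 0 reached 2-fold. Its 24 h difference was negative under all 11 alternatives of processing that gave a value, from -0.58 to -0.26. Those that changed the floor or filter, or left out _x_at and _s_at probe sets, could not move it and gave -0.51 again.

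AFF4, the scaffold of the form of the complex used in most cell types, read 671, 505 and 670.4 by its brightest probe set. This was 1.33-fold lower at 6 h (log2 difference -0.41) and next to untreated at 24 h (-0.0013). Its 6 kept probe sets ranged from -0.72 to 0.51 at 6 h and from -0.78 to 0.33 at 24 h, with 4 and 5 of them negative. At 24 h the 5 dimmer probe sets were thus not level with untreated as the brightest was, 4 of them lying from -0.78 to -0.15 and the dimmest at 0.33, and the mean over all 6 was -0.29. At 24 h the brightest stood at 0.16 after quantile normalization and 0.25 after centring on array medians. The median gene then stood at 0.05 and 0.12. AFF3 (LAF4), a lymphoid paralog, had 6 probe sets with signals between 0.6 and 10.0, all under the floor on all 3 arrays, and gives no difference.

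ELL2, the ELL protein tied to antibody secretion, was close to untreated. Its brightest probe set read 1249 without FK866, 1137 after 6 h and 1088 after 24 h. The next probe set read 559, 535 and 466, and the third 82.3, 74.7 and 59.9. All 3 stepped down in the same order, untreated then 6 h then 24 h. The steps were small, with log2 differences from -0.14 to -0.06 at 6 h and from -0.46 to -0.20 at 24 h, while the median gene stood at -0.10 and -0.13. By the brightest probe set, ELL2 ranked 6177 of 11235 from the top at 6 h. Centring on array medians put ELL2 at 0.10 at 6 h and 0.05 at 24 h, where the median gene stood at 0.13 and 0.12. Quantile normalization gave ELL2 0.01 and -0.02, against 0.03 and 0.05 for the median gene. The sign against untreated thus depended on the scaling, so no direction is given.

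ELL, the founding member of the family, read 93.6, 113 and 89.4 by its brightest probe set, a log2 difference of 0.27 at 6 h and -0.07 at 24 h. Its other probe sets went the other way at 6 h, at -0.17 and -0.12, so the probe sets do not share a direction. All 3 are of the _s_at type. ELL3, a paralog first known from testis, read 16.7, 24.0 and 24.0, next to the floor. Its log2 difference of 0.52 at both times came to 0 with a floor of 32.

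The P-TEFb genes stood within 2-fold of untreated. CDK9, its kinase, read 209, 168 and 199.6 by its brightest probe set and 87.9, 57.5 and 73.2 by the next. Both were lowest at 6 h, with log2 differences of -0.32 and -0.61, and nearer to untreated at 24 h, at -0.07 and -0.26. The second value at 6 h was larger in size than the pooled SD of 0.40 at a mean log2 signal from 6 to 8. That SD does not cover variation between cultures. CCNT1, its cyclin, read 1058, 983 and 954 by its brightest probe set and 103, 84.1 and 87.8 by the other. These were log2 differences of -0.11 and -0.30 at 6 h and -0.15 and -0.23 at 24 h. After centring on array medians the brightest CCNT1 probe set stood at 0.13 and 0.10 and CDK9 at -0.08 and 0.19. The median gene then stood at 0.13 and 0.12.

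Between the treated arrays, 0 of the 9 genes differed 2-fold, against 1.09% of all genes higher and 1.84% lower at 24 h than at 6 h. AFF4 (0.41), MLLT1 (0.37) and CDK9 (0.25) were higher at 24 h, and ELL (-0.34), AFF1 (-0.33) and MLLT3 (-0.32) lower. For CDK9 both kept probe sets were higher at 24 h, for MLLT3 both and for AFF1 all 3 were lower, whereas AFF4 had 4 of 6 probe sets lower. The other ELL probe sets stood at 0.47 and -0.15, so those of ELL do not share a direction. ELL2 and CCNT1 differed by -0.06 and -0.04, and ELL3 by 0.00.

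**Figure D2:**
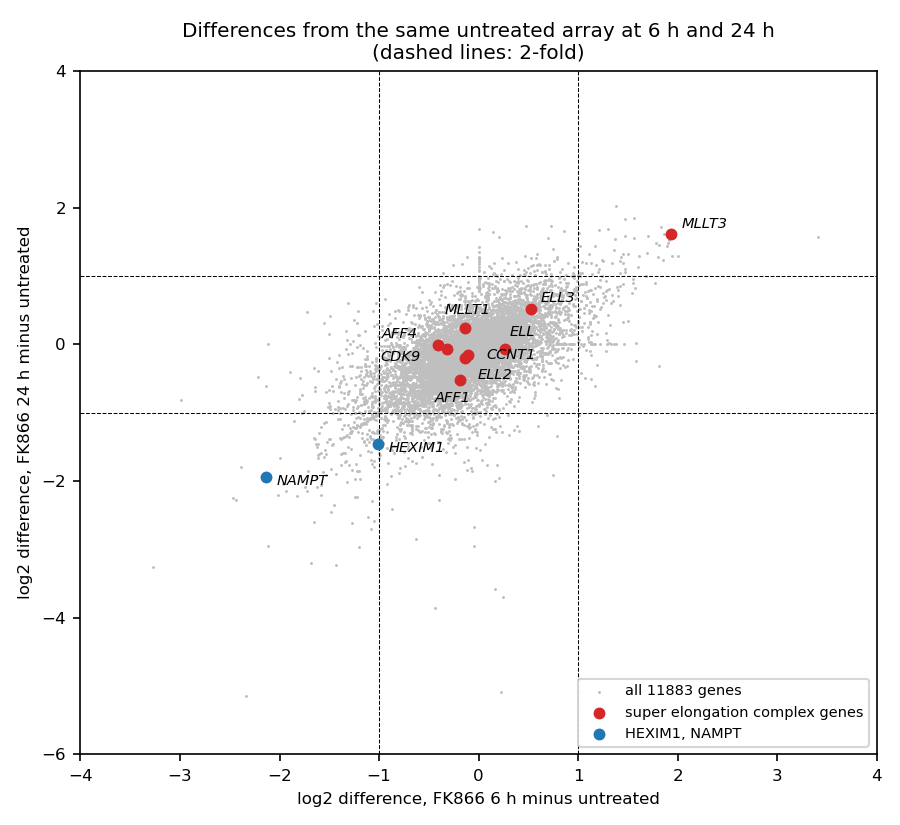
Log2 difference from untreated at 6 h (horizontal) and 24 h (vertical) for all 11883 genes (grey), the 9 measured subunit genes (red), and HEXIM1 and NAMPT (blue); dashed lines mark 2-fold. MLLT3 lies apart at 1.93 and 1.61 and the 8 others inside 2-fold both times; both axes share the untreated array, and NAMPT, the enzyme that FK866 blocks, is at -2.13 and -1.94.

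The genes nearest to MLLT3 and to ELL2 are given as a description. Likeness was the distance between genes in the plane of the 6 h and 24 h log2 differences, over the 3 arrays, among 7245 genes above the floor on every array whose probe sets shared a direction. Within a distance of 0.3 lay 3 genes for MLLT3, which was chosen for its large differences, and 2846 for ELL2, which lies near 0 where most genes are. The nearest to MLLT3 were PHF21A (distance 0.12), HTR2C (0.18), CRACD (0.19), ESRRG (0.33) and SLC16A14 (0.35). PHF21A, part of a histone demethylase complex, read 84.9, 317 and 239 by its brightest probe set. Its other probe sets stood at 0.93 and 1.26 and at 0.68 and 0.03, so they share its direction but not its sizes. SLC16A14, of the monocarboxylate transporter family, read 145, 506 and 351. HTR2C, CRACD and ESRRG had untreated signals from 16.8 to 20.0, next to the floor. The nearest to ELL2 were UTP11, BNIP2, BTF3, DSP and RTF2, at distances from 0.0033 to 0.0091.

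By their brightest probe sets, the listed genes of pause control and P-TEFb regulation were within 2-fold of untreated other than HEXIM1. The list had 23 genes, of which 19 were measured and 4 have no probe set with 1 symbol here. At each time, 1 of the 19 was lower by 2-fold or more and 0 were higher by that size, against 3.32% lower and 1.44% higher of all genes at 6 h and 4.17% and 1.14% at 24 h. The list medians were -0.18 at 6 h and -0.19 at 24 h, against -0.10 and -0.13 for all genes, with 12 and 13 of the 19 below the median of all genes.

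HEXIM1 inhibits CDK9 when it is bound to the 7SK RNA. P-TEFb activity was not measured here. The brightest HEXIM1 probe set read 813 without FK866, 404 after 6 h and 297 after 24 h, and the other 125, 68.3 and 47.7. Both probe sets were highest in untreated cells and lowest at 24 h. The brightest stood 2.01-fold below untreated at 6 h and 2.74-fold at 24 h, log2 differences of -1.01 and -1.45, and the other stood at -0.87 and -1.39. After quantile normalization these became -0.90 and -1.31 by the brightest probe set, so at 6 h 2-fold was not reached. Both are of the _s_at type.

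Several of the others were lower without reaching 2-fold by their brightest probe sets. MEPCE, which caps and stabilises 7SK, read 705, 407 and 469, log2 differences of -0.79 and -0.59 by its single probe set. CDK13, a kinase of the polymerase tail, stood at -0.56 and -0.90 by the brightest of 6 probe sets, which spanned -0.56 to 0.26 at 6 h and -0.90 to 0.66 at 24 h. BRD2, a bromodomain protein, stood at -0.47 and -0.51 with all 3 probe sets lower. CCNT2, another cyclin of CDK9, stood at -0.44 and -0.42 with all 4 lower. LARP7 stood at -0.16 at both times by its brightest probe set. Its 3 kept probe sets spanned -0.82 to 0.19 at 6 h and -1.57 to -0.16 at 24 h. BRD2, CCNT2 and LARP7 were named after their values were seen. At the other end, PPM1A (0.16) and BRD3 (0.11) were highest at 6 h, and NELFB (0.10) and the pause factor SUPT5H (0.05) at 24 h. The PPM1A value at 6 h was -0.34 by the median of its probe sets.

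**Figure D3:**
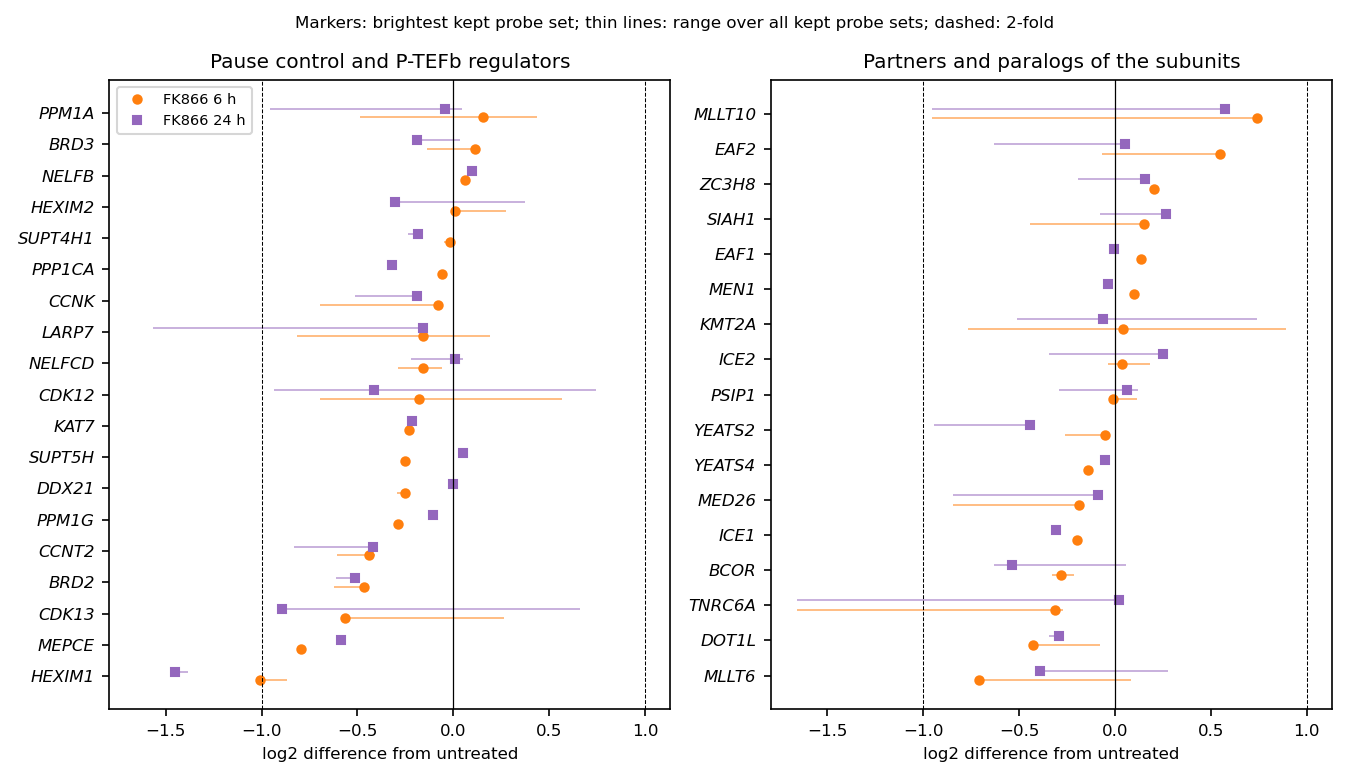
Log2 difference from untreated at 6 h (orange circles) and 24 h (purple squares) for the 19 measured pause control genes and P-TEFb regulators (left) and the 17 measured partners and paralogs (right). Thin lines span the kept probe sets of a gene and dashed lines mark 2-fold. HEXIM1 is the only gene whose marker passes 2-fold, and the probe sets of MLLT10 and CDK13 span both directions.

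Of 19 partners and paralogs of the subunits, 17 were measured. By their brightest probe sets 0 passed 2-fold at 6 h or at 24 h, against 4.76% and 5.3% of all genes either way. The lowest of the 6 kept TNRC6A probe sets stood at -1.66 at each time. The list medians were -0.01 and -0.03, with 10 and 12 of 17 above the median of all genes. EAF2, which binds ELL proteins, read 1434, 2101 and 1487 by its brightest probe set. It was 1.46-fold higher at 6 h and level at 24 h (0.05), while its second probe set, read at 24.8, 23.7 and 13.1, stood at -0.07 and -0.63. MLLT10 (AF10), a cofactor of the methyltransferase DOT1L that also binds MLLT3 and MLLT1, stood at 0.74 and 0.57 by its brightest probe set (242, 405 and 360.1). Its 7 probe sets spanned -0.95 to 0.74 at 6 h and -0.95 to 0.57 at 24 h, and their mean was -0.06 and -0.11. The lowest were its paralog MLLT6 (-0.71 at 6 h, with a second probe set at 0.08) and DOT1L (-0.43) at 6 h, and the corepressor BCOR (-0.54) and YEATS2 (-0.44) at 24 h. SIAH1, a ubiquitin ligase known to act on ELL2, stood at 0.15 at 6 h and 0.27 at 24 h, and at -0.15 at 6 h by the mean of its probe sets.

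Of 35 listed genes of the general elongation machinery, 34 were measured. By their brightest probe sets 0 passed 2-fold, against 4.76% of all genes either way at 6 h and 5.3% at 24 h, and the medians were -0.10 and -0.10. The lowest were TCEA2 (-0.74) and POLR2E (-0.33) at 6 h, the TCEA2 signals of 56.9, 34.1 and 46.6 giving 0 with a floor of 64, and PAF1 (-0.71), a subunit of the PAF complex, and SUPT6H (-0.63), a histone chaperone, at 24 h. The highest were RECQL5 (0.36) and GTF2F1 (0.21) at 6 h, and SUPT16H (0.36), of the FACT chaperone, and PCF11 (0.31) at 24 h. The RECQL5, GTF2F1 and, at 6 h, PCF11 values had the other sign by the median over probe sets. Without _x_at and _s_at probe sets RECQL5 stood at -1.04 at 6 h and -1.01 at 24 h, past 2-fold in the other direction.

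Of 20 listed genes that KMT2A fusions carrying these subunits drive in leukaemia, 13 were measured and 0 passed 2-fold, against 4.76% of all genes either way at 6 h and 5.3% at 24 h, with medians of -0.05 and -0.17. The kinase gene CDK6 stood at -0.62 at 6 h and CPEB2 at -0.58 and -0.86. SATB1 (0.37) and ARID2 (0.35) were highest at 6 h, and the transcription factor MYB stood at -0.39 at 24 h. The mean over probe sets turned ARID2 to -0.02 at 6 h.

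Signal-induced genes, whose pause release uses the complex, held 11 measured genes of 18, and FOS, FOSB, EGR1 and EGR3 were under the level filter. Their medians were -0.07 and -0.16. NR4A1, an immediate early nuclear receptor, was the only 1 of the 11 past 2-fold against untreated, where 4.76% of all genes passed either way at 6 h and 5.3% at 24 h. Among genes as dim as NR4A1, at a mean log2 signal under 6, 8.29% were at least 2-fold lower at 6 h and 9.8% at 24 h. NR4A1 was lower by at least 3.43-fold at 6 h, its signal of 15.8 lying under the floor, and by 2.01-fold at 24 h. These are from its brightest probe set, which read 54.8, 15.8 and 27.3. Its other probe set read 89.1, 8.2 and 6.9, a log2 difference of -2.48 at both times that is a bound because both treated signals lie under the floor, and the mean of the probe sets at 24 h was -1.74. Under a floor of 64 only the second probe set is above the floor, in untreated cells, and it gives -0.48 at both times. At 24 h NR4A1 stood at -0.73 after quantile normalization and -0.75 after centring on array medians, within 2-fold. DNAJB1, a heat shock cochaperone, read 652, 949 and 362, so its brightest probe set was higher at 6 h (0.54) and lower at 24 h (-0.85), while its other probe set stood at 0.82 and -0.18 and the mean at 24 h was -0.52. HSPH1 (0.54) was second highest at 6 h, JUNB (-0.63, and 0 with a floor of 64) second lowest, and DUSP1 stood at 0.36 and 0.45.

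In the antibody secretion programme in which ELL2 acts, 18 of 20 genes were measured, with medians of -0.02 and 0.06. BCL6, a repressor of plasma cell fate, was the only 1 of the 18 past 2-fold, against 4.76% of all genes either way at 6 h and 5.3% at 24 h. Among genes as dim as BCL6, at a mean log2 signal under 6, 8.29% were at least 2-fold lower at 6 h and 9.8% at 24 h. BCL6 was at least 4-fold lower at 6 h (64 to 13.1, under the floor) and 3.15-fold lower at 24 h, and with a floor of 64 it had no difference. IRF4, a regulator that plasma cells depend on, read 1698, 2029.6 and 3226, at 24 h 1.90-fold above untreated. IRF4 passed 2-fold at 24 h under the 3 scaling alternatives, at log2 differences of 1.05 to 1.18. XBP1, which drives the secretory programme, read 8109.6, 5511 and 4695, log2 differences of -0.56 and -0.79. CSTF2T (0.32, and -0.11 without _x_at and _s_at probe sets) was second highest at 6 h after EAF2, and HNRNPF (0.38), an RNA-binding protein, second highest at 24 h. ELL2 itself, at -0.13 and -0.20, lay nearer to untreated than XBP1 at both times and than IRF4 at 24 h.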

How the data were processed

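The deposited table gives 1 intensity per probe set and array on a linear scale, from Affymetrix arrays hybridised with biotinylated cRNA made from 1 µg of total RNA, per the labels' protocols. Probe summary, background correction and scaling are not given in the sources used here. Median intensities were 20.5, 17.4 and 17.2 in the untreated, 6 h and 24 h arrays. The table holds 54675 probe sets, 62 of them controls. The platform annotation, of 2016, gave 1 symbol for 41097, several for 1801 and none for 11777; 41043 matched RefSeq by gene identifier.

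Signals were floored at 16, filtered and logged as described with the values, and folds from a value under the floor are given as lower bounds. No test was run, because each group holds 1 array, which limits the precision, and 2-fold was the size described. The procedure was tested on simulated data, with differences placed only in genes having a probe set at a mean log2 signal of 8 or more. All probe sets of such a gene were given the same difference. The simulation thus does not cover a gene at the level of MLLT3, or probe sets that differ in size as those of MLLT3 did. The members and lists were chosen with earlier results of these data known. Named were all members, of each list those past 2-fold and the 2 highest and 2 lowest at each time, the 5 nearest genes to MLLT3 and to ELL2, and NAMPT. Alternatives covered scaling, floor, filter, several probe sets of a gene, _x_at and _s_at probe sets and size. Python 3.11.15 with numpy 2.4.6, pandas 2.3.3 and matplotlib 3.10.9 was used.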

Additional observations from a re-analysis of the deposited data

Results flagged for a closer look

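By the brightest probe set and without rescaling, several differences from untreated had opposite signs at 6 h and 24 h. With 1 array per time, the difference between the times was not tested in any of them. Among the subunit genes, MLLT1 went from -0.14 at 6 h to 0.24 at 24 h, and ELL from 0.27 to -0.066. After centring on array medians MLLT1 was above 0 at both times (0.10 and 0.49), and the other ELL probe sets stood at -0.17 and -0.12 at 6 h. In the list of pause control genes and P-TEFb regulators BRD3 went from 0.11 to -0.19, PPM1A from 0.16 to -0.045 and SUPT5H from -0.25 to 0.050. The second BRD3 probe set went the other way, from -0.14 to 0.04, and the PPM1A probe sets spanned -0.49 to 0.44 at 6 h. SUPT16H went from 0.00 to 0.36 and MYB from 0.01 to -0.39. DNAJB1, at 0.54 and -0.85, differed by -1.39 on the log2 scale between 24 h and 6 h by its brightest probe set.

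Of the probe sets left out by the level filter, 4 were under the floor of 16 in untreated cells and above it on a treated array. The third MLLT3 probe set read 25.0 at 24 h against 13.5 in untreated cells. The fourth ELL2 probe set read 16.6 at 6 h against 7.1, the second ELL3 probe set 18.2 at 6 h against 13.4, and the third CDK9 probe set 21.6 at 24 h against 11.2.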

How the results depend on the processing

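No paired analysis was possible because each group has 1 array. MLLT3 was at least 2-fold higher at 6 h and 24 h under the 10 alternatives that gave it a value, between 1.40 and 2.17 at 6 h and between 1.13 and 1.86 at 24 h. The other floors and filters among the 10 left its values unchanged. The lowest came from the mean and the median over probe sets (1.40 and 1.13). Without _x_at and _s_at probe sets it had no value, and 0 subunit genes were 2-fold higher at either time. Over 138 named differences and their alternatives, 1364 of 1449 values moved by less than the probe set SD, a total that includes floors and filters that cannot move a bright gene, while 47 of the 138 moved by more under at least 1 alternative, and 0 differences past 2-fold changed sign. HEXIM1 was 2-fold lower under 10 of 10 alternatives at 24 h and 4 of 10 at 6 h, the 4 being other floors and filters that left its value unchanged. Counts of all genes moved more. At 6 h the 171 higher and 395 lower genes became 279 and 208 after quantile normalization, 319 and 181 after median centring, 87 and 181 with a floor of 32, 49 and 115 with a floor of 64, 43 and 91 with log2(signal + 32), 43 and 93 after filtering at the 75th percentile, and 679 and 1350 at 1.5-fold. At 24 h the 135 and 495 became, in the same order, 288 and 264, 299 and 254, 62 and 246, 36 and 161, 25 and 158, 32 and 130, and 598 and 1682, and 215 were higher after subtracting the median gene difference. Between the treated arrays the 130 and 219 became 38 and 89, 20 and 49, 20 and 48, 16 and 46, and 635 and 941 from the floor of 32 onwards. Higher floors and filters leave fewer dim genes to pass; other causes were not tested.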
